A study of Homo sapiens with 4 samples.

Results

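Integrins, ADAMTS proteases, matrix metalloproteinases (MMP) and their tissue inhibitors (TIMP) form the machinery through which cells hold on to the extracellular matrix and cut it. The chromatin around 69 genes of these families was examined in cardiac progenitor cells made from WTC11, an established line of human induced pluripotent stem cells labelled as wild type. Members were chosen by gene symbol: 24 integrin genes (16 alpha and 8 beta chains), 19 ADAMTS genes and 26 MMP or TIMP genes. A peak of open chromatin counted as a member's when the authors had labelled it with that symbol, or when the member was the nearest protein-coding gene within 100 kb of it. This gave 282 of the 60875 peaks (0.463%), of which 105 belonged to integrin, 120 to ADAMTS and 57 to MMP/TIMP genes. All but 4 of the genes (MMP3, MMP12, MMP21 and MMP27) had at least 1 peak. Of the 282 peaks, 34 carried the member's symbol and 248 were assigned by distance alone. Another protein-coding gene was as near or nearer for 26 of the 282 peaks.

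Open chromatin was measured by ATAC-seq, where adapters are inserted into accessible DNA by the enzyme Tn5, on day 6 of cardiac differentiation. Of the 4 libraries, 2 came from progenitors whose differentiation ended in a high purity of cardiomyocytes (high) and 2 from progenitors that ended in a low purity (low). Both groups had the same cell line, genotype and differentiation treatment, and the sources used here do not give the purity that separates them. The values are those of the authors' comparison between the groups, per peak and without a value per library, so that neither depth nor the scatter of replicates could be examined and no value per sample can be shown. The authors' deposited table marks peaks with negative log2 fold changes Up and those with positive ones Down, and which of high and low is the numerator is not stated. Peaks are therefore placed on the Up side (negative) or the Down side (positive), neither of which is tied to high or low. A peak was called at an adjusted p under 0.05 (DESeq2 Wald test, Benjamini-Hochberg over all peaks). The labels call the libraries biological replicates without saying what was separate, so the p-values reflect how these libraries vary, which may be technical in part. ATAC-seq of a mixed culture cannot separate a change in the share of a cell type from a change of accessibility within cells.

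Integrins are receptors made of 1 alpha and 1 beta chain that bind laminins, collagens or fibronectin outside the cell and the actin skeleton inside it. ADAMTS proteins are secreted metalloproteases that process procollagens and cleave proteoglycans such as versican, a main component of the cardiac jelly of the embryonic heart in mice. MMPs degrade collagens, gelatins and basement membrane, and TIMPs block them. Fibronectin and its receptor chain ITGA5 are needed for early mesoderm and heart development in mice.

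RefSeq start windows (GRCh38.p14; the submitters' processing notes name GRCh38) were found for 42 of the 69 genes, 16 integrin, 12 ADAMTS and 14 MMP/TIMP genes. In the 250 bases before the start, 21 of the 42 windows were overlapped by a peak, in 8 integrin, 8 ADAMTS and 5 MMP/TIMP genes, and 0 by a called peak. Over all 15843 protein-coding windows, 9679 were overlapped by a peak and 62 of those (0.641%) by a called one, so calls at start windows were rare throughout the table. The sequences shown are those with the highest mean count at a symbol-bearing peak in each family among the genes with a window (ITGAV, ADAMTS17 and TIMP3). Also shown, and chosen after their values were seen, are 4 genes with an uncalled peak on the window and a called peak elsewhere (ITGA1, ITGA6, ADAMTS6 and ADAMTS12), and MMP10, whose window had both a peak and an AP-1 match. ITGB8 also had an uncalled peak on its window and a called peak elsewhere. It is not shown because its window overlaps its gene body. Each sequence is given 5′ to 3′ on the gene's strand. Capitals mark matches, on either strand, to the AP-1 letters TGANTCA (N is any base) and to the GC box letters GGGCGG.
ITGAV (chr2:186589806-186590055, plus strand): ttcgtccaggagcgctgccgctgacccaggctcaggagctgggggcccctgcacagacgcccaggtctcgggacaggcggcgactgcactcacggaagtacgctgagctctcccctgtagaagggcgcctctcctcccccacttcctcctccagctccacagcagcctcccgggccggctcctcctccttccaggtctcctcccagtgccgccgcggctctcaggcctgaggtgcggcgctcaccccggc
ITGA1 (chr5:52787666-52787915, plus strand): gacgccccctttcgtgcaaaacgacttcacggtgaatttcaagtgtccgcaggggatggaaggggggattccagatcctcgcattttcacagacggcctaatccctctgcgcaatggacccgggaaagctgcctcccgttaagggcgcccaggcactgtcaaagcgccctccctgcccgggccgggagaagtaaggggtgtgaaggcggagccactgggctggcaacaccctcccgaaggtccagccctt
ITGA6 (chr2:172427086-172427335, plus strand): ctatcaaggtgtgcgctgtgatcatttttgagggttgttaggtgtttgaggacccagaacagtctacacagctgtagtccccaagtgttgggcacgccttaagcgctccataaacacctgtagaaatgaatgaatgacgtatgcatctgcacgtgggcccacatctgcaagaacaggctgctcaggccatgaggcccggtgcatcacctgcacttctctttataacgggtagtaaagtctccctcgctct
ADAMTS17 (chr15:100341976-100342225, minus strand): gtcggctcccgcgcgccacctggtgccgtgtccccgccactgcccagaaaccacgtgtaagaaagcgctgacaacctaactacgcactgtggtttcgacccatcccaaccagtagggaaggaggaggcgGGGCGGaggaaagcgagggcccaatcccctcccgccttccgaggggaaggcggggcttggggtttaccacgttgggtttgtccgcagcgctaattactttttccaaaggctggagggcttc
ADAMTS6 (chr5:65481921-65482170, minus strand): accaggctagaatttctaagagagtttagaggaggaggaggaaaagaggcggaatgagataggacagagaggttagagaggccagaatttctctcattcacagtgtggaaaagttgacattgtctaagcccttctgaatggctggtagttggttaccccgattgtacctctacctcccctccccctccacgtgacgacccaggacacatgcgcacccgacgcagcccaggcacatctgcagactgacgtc
ADAMTS12 (chr5:33891991-33892240, minus strand): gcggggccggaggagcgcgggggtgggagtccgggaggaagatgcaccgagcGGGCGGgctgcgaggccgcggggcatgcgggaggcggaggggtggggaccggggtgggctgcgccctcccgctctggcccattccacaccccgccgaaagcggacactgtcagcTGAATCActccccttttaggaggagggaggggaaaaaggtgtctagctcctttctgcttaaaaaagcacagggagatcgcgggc
TIMP3 (chr22:32801455-32801704, plus strand): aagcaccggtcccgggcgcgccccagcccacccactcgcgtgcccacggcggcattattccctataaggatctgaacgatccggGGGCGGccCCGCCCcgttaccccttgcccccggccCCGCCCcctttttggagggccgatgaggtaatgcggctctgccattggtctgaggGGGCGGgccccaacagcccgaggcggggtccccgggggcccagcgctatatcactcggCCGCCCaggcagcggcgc
MMP10 (chr11:102780629-102780878, minus strand): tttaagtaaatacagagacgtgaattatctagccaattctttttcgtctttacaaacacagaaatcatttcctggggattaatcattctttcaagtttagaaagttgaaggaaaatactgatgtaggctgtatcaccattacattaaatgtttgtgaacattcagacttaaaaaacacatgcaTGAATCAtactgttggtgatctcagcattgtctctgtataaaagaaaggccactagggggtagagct

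The windows differ in composition. Every motif was searched on both strands, and none of the letters searched contains another motif. GC content was 72.4% in TIMP3, which holds 5 GC boxes, and 34.4% in MMP10, which holds none but has matches to the TATA box letters TATAAA and the CCAAT box letters CCAAT. GC boxes were found in 25 of the 42 member windows (59.5%) and in 56.0% of all 15843 protein-coding windows of the same length. AP-1 matches, bound by FOS and JUN factors, were found in 4 of 42 member windows (9.52%), namely ADAMTS12, MMP7, MMP10 and MMP20, and in 5.04% of all windows. TATA box matches were found in 8 of 42 (19.0%), 6 of them in MMP/TIMP genes, against 9.23% of all windows. The CCAAT box was found in 13 of 42 (31.0%), against 34.5%, and the CRE letters TGACGTCA in 0 of 42, against 2.32%. These matches describe letters in the window and do not show binding, which was not measured here.

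Among all member peaks, 21 of 282 (7.45%) were called in the authors' deposited table, against 6.00% of all peaks. On the Up side 3 of 282 (1.06%) were called, against 2.36% of all peaks, and on the Down side 18 of 282 (6.38%), against 3.64%. The share on the Down side among called peaks was 85.7% in the members and 60.7% over all peaks. The median log2 fold change was 0.13 over the 282 member peaks and 0.0015 over all peaks. The 21 called peaks belonged to 18 genes, 3 of which had 2 such peaks and 15 of which had 1, so 47 of the 65 genes with a peak had none. For 3 of the 21, those at ITGA1 and TIMP4 among them, another protein-coding gene was equally near. By the authors' own marking (unadjusted p under 0.05 and a log2 fold change of 1 or more in either direction) the split was less one-sided: 13 member peaks (4.61%) were marked Up, against 4.86% of all peaks, and 20 (7.09%) Down, against 4.98%.

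**Figure D1:**
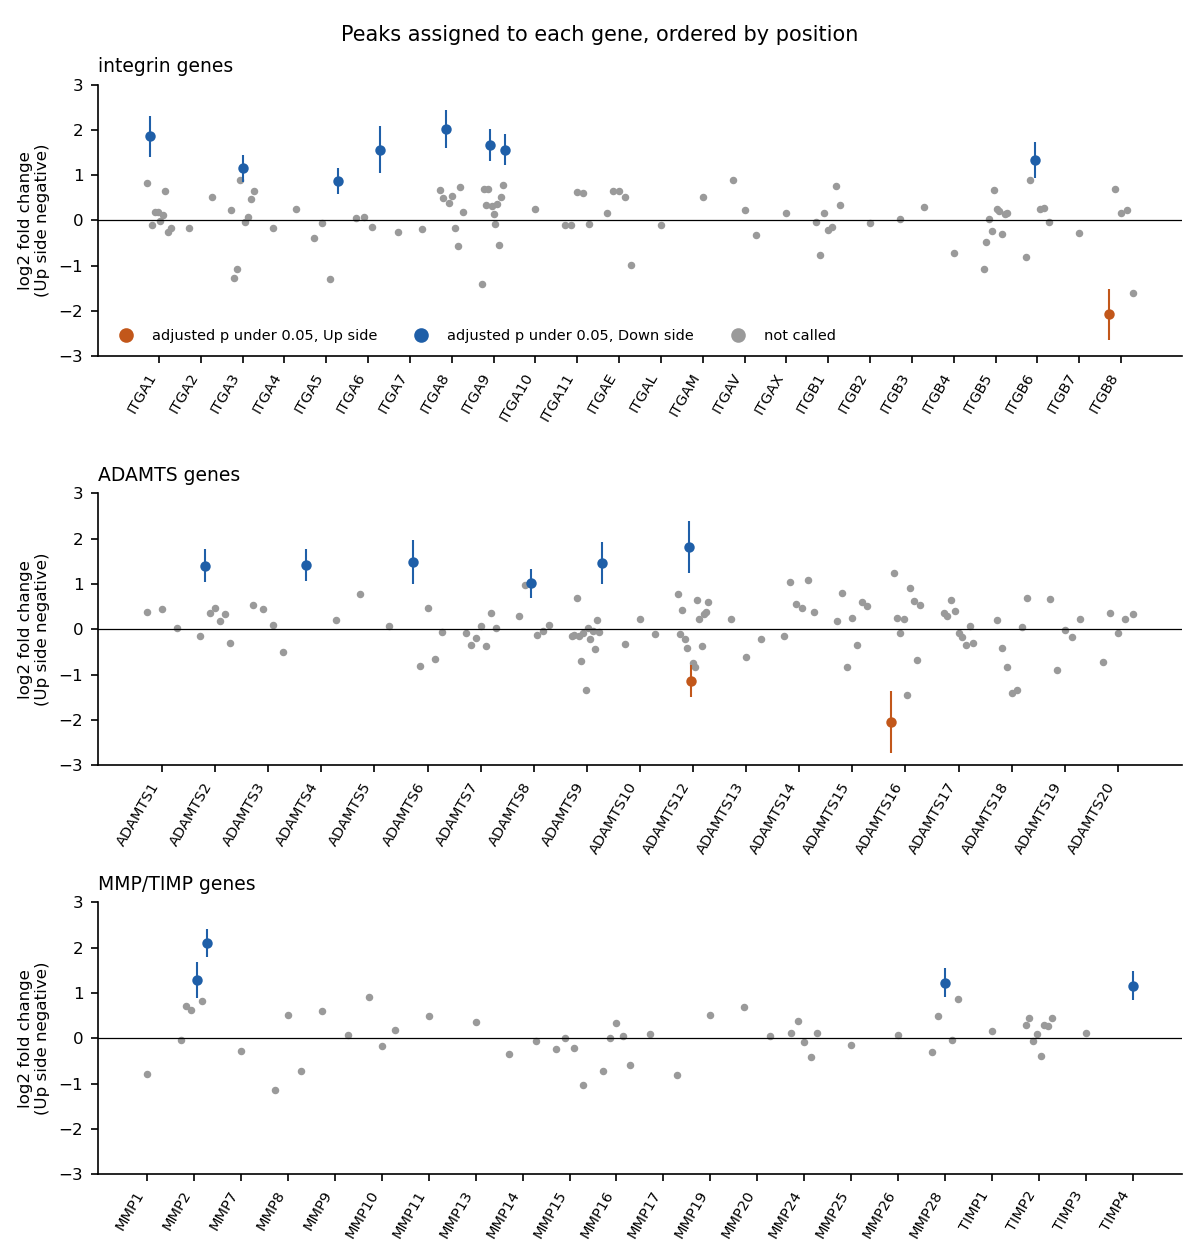
Log2 fold change of each member peak in the authors' deposited table (y axis; Up side negative), grouped by gene (x axis) and ordered by position within the gene; coloured points are called at an adjusted p under 0.05, with SE bars. Of the 21 coloured points 18 lie above 0, and the 3 below are peaks of ITGB8, ADAMTS12 and ADAMTS16.

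The share of peaks called lay between 6.67% and 8.57% in the 3 families. In the integrin group 9 of 105 peaks (8.57%) were called, 1 Up and 8 Down, in 8 of 24 genes. In the ADAMTS group 8 of 120 peaks (6.67%) were called, 2 Up and 6 Down, in 7 of 19 genes. In the MMP/TIMP group 4 of 57 peaks (7.02%) were called, 0 Up and 4 Down, in 3 of 22 genes with a peak. An unadjusted p under 0.05 was found at 24 integrin peaks (22.9%), 7 negative and 17 positive. It was found at 23 ADAMTS peaks (19.2%), 9 negative and 14 positive, and at 10 MMP/TIMP peaks (17.5%), 1 negative and 9 positive. Over all peaks the share was 16.4%, with 4751 negative and 5236 positive. The median log2 fold change was 0.17 in integrin, 0.078 in ADAMTS and 0.10 in MMP/TIMP peaks, against 0.0015 over all peaks. Whether the families differ was not tested.

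**Figure D2:**
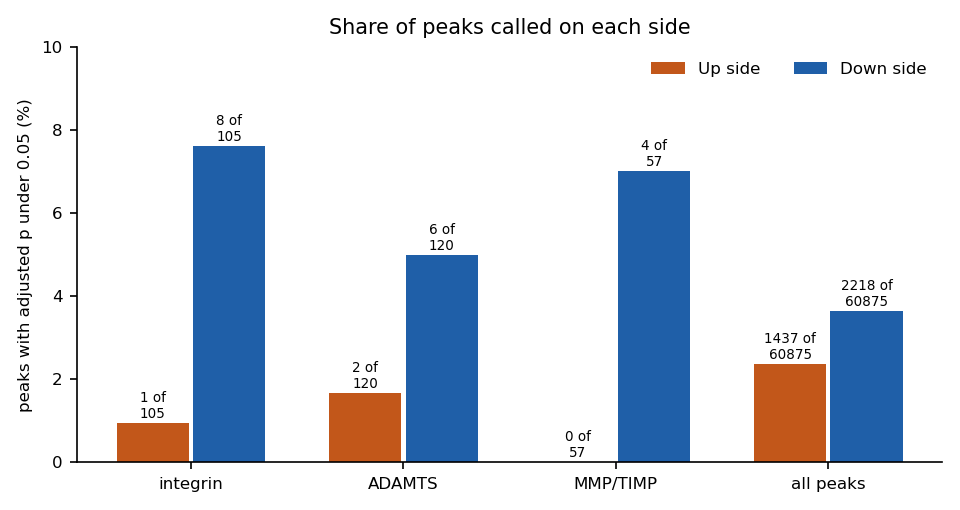
Share of peaks called by the authors' deposited table at an adjusted p under 0.05 (y axis, percent) on the Up and Down side, for integrin, ADAMTS and MMP/TIMP peaks and for all peaks. The Down side bars are at 7.62%, 5% and 7.02% in the families and at 3.64% over all peaks; the Up side bars are at 0.952%, 1.67% and 0%, against 2.36%.

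No called member peak lay at a gene end, a place where few peaks of the whole table were called. Within 1 kb of either end of the gene, 0 of 52 member peaks, in 45 genes, were called by DESeq2. Over all peaks in that place the share was 1.25%. Of the 52, 5 had an unadjusted p under 0.05 (9.62%, against 16.4% of all peaks in any place). Inside the gene and over 1 kb from both ends, 10 of 136 (7.35%) were called, against 6.94%. Outside the gene at over 1 kb, 11 of 94 (11.7%) were called, against 6.83%. By family, 7 of 31 integrin peaks (22.6%), 4 of 47 ADAMTS peaks (8.51%) and 0 of 16 MMP/TIMP peaks outside the gene were called. Of these 16, 3 had an unadjusted p under 0.05 (18.8%, against 16.4% of all peaks in any place). The share over all peaks at an unadjusted p was not split by place. The 9.62% and 18.8% therefore have no share from the same place beside them. Inside the gene, 2 of 55 integrin (3.64%), 4 of 53 ADAMTS (7.55%) and 4 of 28 MMP/TIMP peaks (14.3%) were called, against 6.94%. Of those 4 MMP/TIMP peaks, 2 lay in MMP2. These counts are small, and whether the families differ in place was not tested. Among the 34 symbol-bearing peaks 1 was called (2.94%), against 2.11% of all symbol-bearing peaks. For 38 of the 52 peaks at gene ends, the 95% interval of the fold change lay within 1 log2 unit of 0, and at the other 14 it reached beyond. Exons and introns are not given in the annotation used here.

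**Figure D3:**
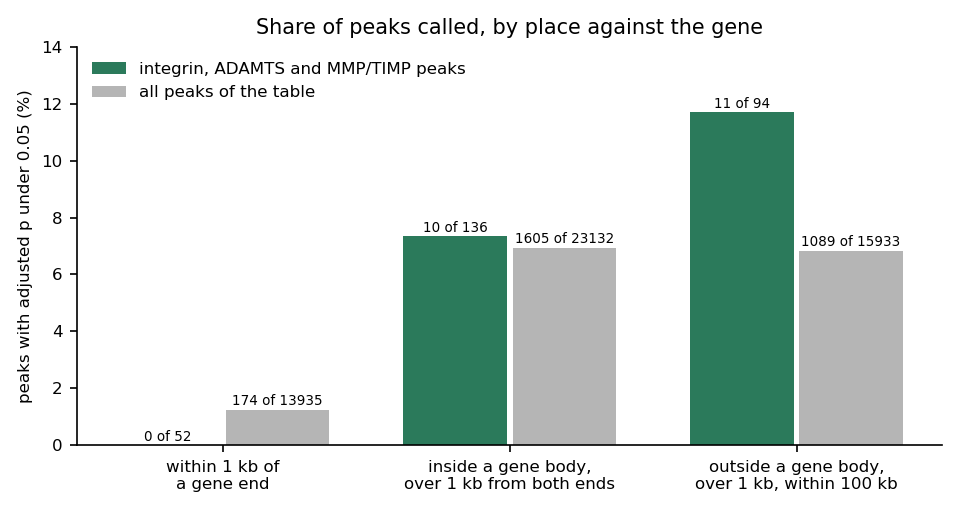
Share of peaks called by the authors' deposited table at an adjusted p under 0.05 (y axis, percent) by place against the assigned gene, for the member peaks and for all peaks. Members reach 0 of 52 within 1 kb of a gene end, 10 of 136 inside the gene and 11 of 94 outside it.

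Among alpha chains, 7 of 72 peaks (9.72%) in 6 of 16 genes were called, all on the Down side, against 6.00% of all peaks on either side and 3.64% on the Down side. Genes with more peaks have more chances of a call. ITGA9, which pairs with ITGB1 and binds tenascin-C, had the most peaks of any integrin gene, 13, of which 10 were positive. The authors' deposited table gives 2 called peaks inside ITGA9, at 1.67 ± 0.35 (SE, 3.19-fold, adjusted p = 0.000232; chr3:37537993-37538675) and at 1.56 ± 0.34 (SE, adjusted p = 0.000381; chr3:37772987-37773428). Between them lie 7 uncalled peaks of the same gene, 5 positive and 2 negative. The remaining 11 ITGA9 peaks ran from -1.41 to 0.78, the lowest of them 20913 bp outside the gene (-1.41 ± 0.49, SE, with 0.0646 as its adjusted p by the authors' deposited table). ITGA8, whose protein binds nephronectin and is needed for kidney formation in mice, had the largest called positive change of an integrin peak. In the authors' deposited table this peak stood at 2.02 ± 0.42 (SE, 4.04-fold, adjusted p = 0.000184; chr10:15483501-15484039), 29915 bp past the end of the gene. The other 8 ITGA8 peaks lay between -0.56 and 0.74 and were not called.

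ITGA1, a collagen-binding chain, had a called peak 49417 bp before its start at 1.86 ± 0.45 (SE, adjusted p = 0.0019; chr5:52738025-52738499) according to the authors' deposited table. PELO, a gene of ribosome rescue that begins at the same base, is equally near to it. The peak on the ITGA1 window printed above was not called and stood at -0.10 ± 0.23 (SE) with a mean count of 205.1 in the authors' deposited table. That peak overlaps PELO as well and carries the symbol PELO, not ITGA1. ITGA3 and ITGA6 encode laminin-binding chains. The only called peak with a member's symbol was that of ITGA3, 2399 bp outside the gene, at 1.15 ± 0.30 (SE, adjusted p = 0.0041; chr17:50053140-50053711) according to the authors' deposited table. The peak over the nearest end of ITGA3 stood at -0.045 ± 0.27 (SE) and was not called, with a mean count of 106 against 89.9 at the called peak, in the authors' deposited table. This end peak carries the symbol of the long noncoding RNA gene PICART1. At ITGA6, the peak 1660 bp past the gene's end was called narrowly, at 1.56 ± 0.52 (SE, adjusted p = 0.0472; chr2:172508119-172508499), and that on its start window stood at 0.057 ± 0.30 (SE) according to the authors' deposited table. ITGA5, the fibronectin receptor chain, had a called peak 12807 bp before its start at 0.88 ± 0.29 (SE, adjusted p = 0.0388; chr12:54432073-54432681) according to the authors' deposited table. It was no longer called once fold changes were recentred by mean count (0.80, adjusted p = 0.0712). Its neighbour peak, 9056 bp before the start, stood on the other side at -1.30 ± 0.46 (SE, adjusted p = 0.0657) according to the authors' deposited table and was not called.

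Among beta chains, 2 of 33 peaks (6.06%) in 2 of 8 genes were called, on opposite sides, a share close to the 6.00% of all peaks. ITGB6 and ITGB8 each pair with ITGAV to bind and activate latent TGF-beta. The authors' deposited table gives the ITGB8 peak 24990 bp before the gene as -2.07 ± 0.57 (SE, 4.21-fold, adjusted p = 0.00891; chr7:20304367-20304776), the largest change on the Up side among members. A neighbouring peak 22812 bp before ITGB8 stood on the other side of 0, at 0.68 ± 0.39 (SE), and was not called in the authors' deposited table. A peak on the other flank of ITGB8, 16349 bp past its end, stood at -1.60 ± 0.59 (SE, adjusted p = 0.0896) and was not called, and both symbol-bearing ITGB8 peaks stood at 0.16 ± 0.37 and 0.24 ± 0.24 (SE) according to the authors' deposited table. ITGB6 had a called peak 9195 bp before its start at 1.34 ± 0.40 (SE, adjusted p = 0.018; chr2:160209467-160209815) according to the authors' deposited table. ITGAV itself had the highest mean count of the symbol-bearing integrin peaks, 279.7. That peak, on the start window printed above, was not called and stood at -0.31 ± 0.20 (SE, 95% interval -0.71 to 0.083) according to the authors' deposited table. ITGB5 had the most peaks of the integrin genes without a called one, 10, which ran from -1.08 to 0.67. The lowest, 273 bp outside the gene, stood at -1.08 ± 0.52 (SE, adjusted p = 0.26) according to the authors' deposited table. ITGB1, the beta chain shared by most matrix receptors and named after its values were seen, had 7 peaks from -0.77 to 0.75, none called.

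**Figure D4:**
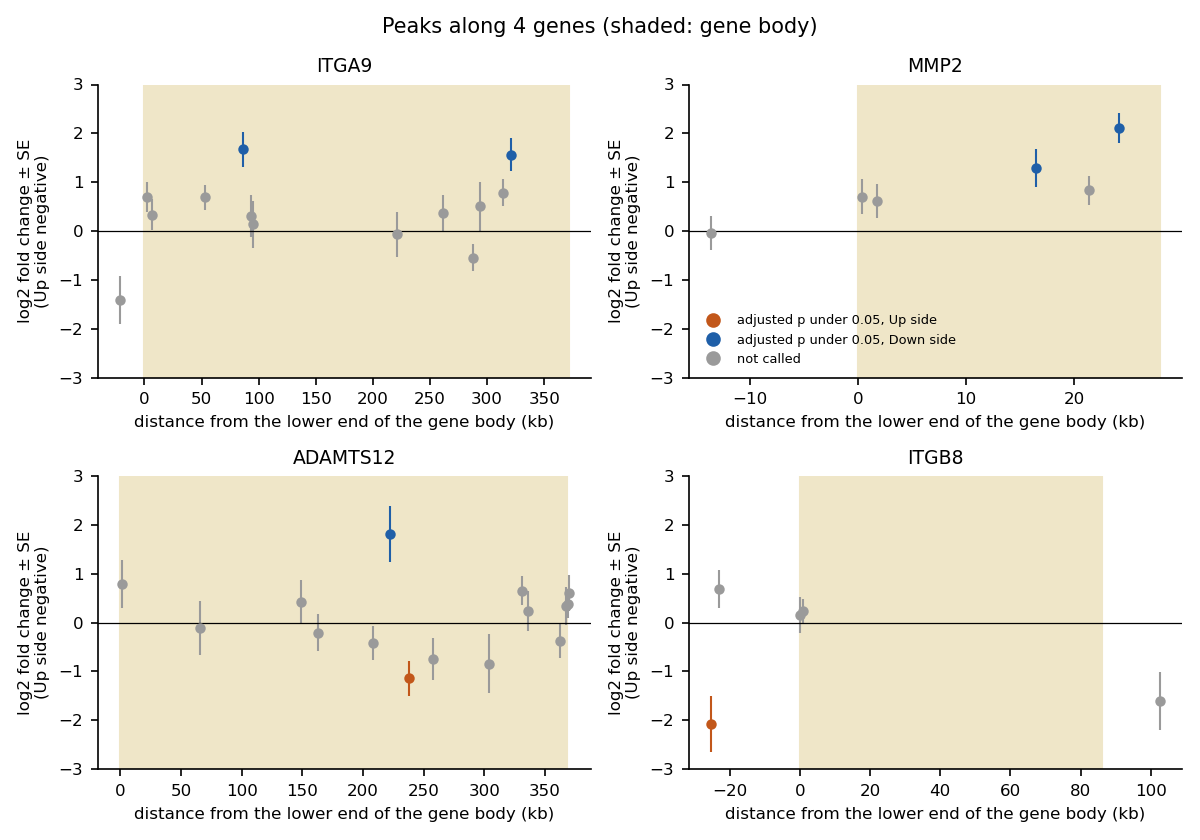
Log2 fold change with SE of each peak in the authors' deposited table (y axis; Up side negative) against the distance in kb from the lower-numbered end of the gene (x axis) for ITGA9, MMP2, ADAMTS12 and ITGB8; shading marks the gene. ITGA9 and MMP2 each have 2 called peaks on the Down side, ADAMTS12 has 1 on each side, and the called ITGB8 peak lies outside the gene at -2.07.

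Among ADAMTS genes, called peaks lay at ADAMTS2, ADAMTS4, ADAMTS6, ADAMTS8, ADAMTS9, ADAMTS12 and ADAMTS16. ADAMTS2 encodes the protease that removes the amino-terminal propeptide of fibrillar procollagens. Its called peak, inside the gene, stood at 1.41 ± 0.36 (SE, 2.65-fold, adjusted p = 0.0043; chr5:179275893-179276343) according to the authors' deposited table, and its 6 other peaks ran from -0.30 to 0.47. ADAMTS9, a protease of aggrecan and versican, had 14 peaks, 10 of them negative, and the only called one was positive: it stood at 1.47 ± 0.46 (SE, adjusted p = 0.0304; chr3:64760838-64761180), 72838 bp outside the gene, in the authors' deposited table. The symbol-bearing ADAMTS9 peak was at -0.064 ± 0.25 (SE) according to the authors' deposited table.

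ADAMTS12, a protease of cartilage oligomeric matrix protein, had the most peaks of any member, 15, and was the only member gene with called peaks on both sides. In the authors' deposited table its peak at chr5:33745427-33745732 stood at 1.82 ± 0.57 (SE, adjusted p = 0.0312) and its peak at chr5:33761162-33761568 at -1.14 ± 0.36 (SE, adjusted p = 0.03), both inside the gene. The peak on the ADAMTS12 start window printed above stood at 0.38 ± 0.28 (SE, adjusted p = 0.587) according to the authors' deposited table. ADAMTS6, which is needed for heart development in mice, had a called peak 61857 bp past its end at 1.49 ± 0.48 (SE, adjusted p = 0.0367; chr5:65086472-65086881), and the peak on its start window stood at -0.058 ± 0.33 (SE) according to the authors' deposited table. For ADAMTS8 the called peak lay 1036 bp outside the gene at 1.02 ± 0.32 (SE, adjusted p = 0.0309; chr11:130403195-130403887) according to the authors' deposited table; a further peak 20942 bp outside stood at 0.98 ± 0.36 (SE, adjusted p = 0.0902) and was not called. ADAMTS16 had a called peak 76322 bp away on the Up side, with -2.05 ± 0.68 (SE, adjusted p = 0.0464; chr5:5063653-5064008) according to the authors' deposited table. With a mean count of 17.6 it was the member with the lowest count among the called, and it was no longer called once fold changes were recentred by mean count (-1.57, adjusted p = 0.192). ADAMTS17 had the symbol-bearing peak with the highest mean count of the family, 208, which stood at 0.064 ± 0.22 (SE, 95% interval -0.36 to 0.49) according to the authors' deposited table and lies on the window printed above.

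Among MMP and TIMP genes, MMP2, MMP28 and TIMP4 had called peaks, all inside the gene and on the Down side. MMP2, gelatinase A, degrades gelatin and basement membrane collagen. Its strongest peak in the authors' deposited table had the largest change and the smallest p of all 282 members, at 2.11 ± 0.31 (SE, 4.31-fold, adjusted p = 2.35e-08; chr16:55502723-55503224). A second MMP2 peak was called at 1.29 ± 0.39 (SE, adjusted p = 0.0231; chr16:55495081-55495400), and the 3 other peaks overlapping the gene stood at 0.70 ± 0.36, 0.62 ± 0.34 and 0.83 ± 0.30 (SE) according to the authors' deposited table, none of them called. The peak 13363 bp outside MMP2 was at -0.042 ± 0.34 (SE) according to the authors' deposited table. All 5 peaks over MMP2 were thus positive, by 0.62 to 2.11 log2 units. MMP28, epilysin, had its called peak at 1.23 ± 0.33 (SE, adjusted p = 0.0071; chr17:35788496-35789061) according to the authors' deposited table, whereas the peak at the end of the gene was at -0.031 ± 0.32 (SE). TIMP4, the TIMP with high expression in the adult heart, lies within SYN2, a synaptic vesicle gene. Its only peak stood at 1.16 ± 0.32 (SE, adjusted p = 0.0102; chr3:12155805-12156180) according to the authors' deposited table and overlaps both genes.

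Other members of the family had no called peak. TIMP2, which both inhibits MMPs and takes part in activating pro-MMP2, had the most peaks, 8, which ran from -0.39 to 0.46. MMP16, a membrane-anchored MMP, had the highest mean count at a symbol-bearing peak of the family, 176, at 0.041 ± 0.25 (SE, 95% interval -0.45 to 0.53) according to the authors' deposited table. Also named after their values were seen, TIMP3 on its printed start window stood at 0.12 ± 0.27 (SE), TIMP1 at 0.16 ± 0.25 (SE) and MMP10 on its printed window at -0.17 ± 0.42 (SE) according to the authors' deposited table. The membrane-anchored activator of pro-MMP2, MMP14, had 2 peaks at -0.35 ± 0.31 and -0.055 ± 0.29 (SE) according to the authors' deposited table. The peaks over TIMP3 and TIMP1 also overlap SYN3 and SYN1.

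**Figure D5:**
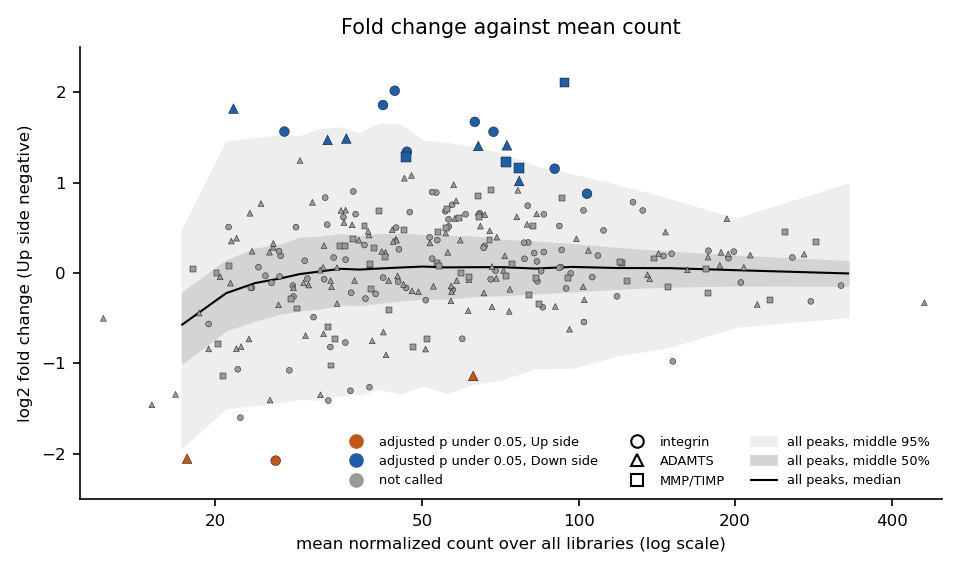
Log2 fold change (y axis; Up side negative) against the mean normalized count over all libraries (x axis, log scale) for the member peaks, over the median and the middle 50% and 95% of all peaks in 20 bins of mean count, from the authors' deposited table. Called member peaks have mean counts from 17.6 to 104, and no member above 104 was called.

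The called member peaks were of middling count. Their median mean count was 62.7, against 52.2 for the uncalled members and 47.8 over all peaks, and they ran from 17.6 to 103.8. On the Down side 10 of 18 and on the Up side 1 of 3 were at or above the median of all peaks. Fold changes leaned towards the Up side at low counts: in the lowest decile of peaks by mean count (up to 22.4) the median log2 fold change was -0.41, against 0.033 in the rest. That decile held 22 member peaks, 2 of them called (ADAMTS16 and the Down side peak of ADAMTS12). Of the 21 called peaks 10 overlapped a long noncoding RNA gene of RefSeq, such as ITGA9-AS1, ADAMTS9-AS2 or PELO-AS1, against 61 of all 282 member peaks (21.6%). Over the whole table the share was 18.6% of called peaks and 18.7% of all peaks; whether the called members differ from it was not tested.

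Genes that work with these families were described by the same assignment. Of 12 integrin ligand genes with a peak, 2 had a called peak that was negative and 3 had one that was positive, with EDIL3 among both. The Down side held TNC, the tenascin-C ligand of ITGA9, with 2 called peaks at 1.79 ± 0.51 and 1.27 ± 0.37 (SE), and SPP1, osteopontin, at 1.83 ± 0.50 (SE) according to the authors' deposited table. On the Up side the laminin alpha-5 gene LAMA5 stood at -1.25 ± 0.30 (SE) according to the authors' deposited table. In all, 6 of 68 ligand peaks were called (8.82%), against 6.00% of all peaks. Of 12 integrin activators and adaptors 3 were called: PXN, the adaptor paxillin, with a negative value of -1.86 ± 0.28 (SE, adjusted p = 2.85e-08), and TLN2, a talin, at 1.32 ± 0.24 (SE) and PARVA, a parvin, at 0.97 ± 0.24 (SE) on the Down side, from the authors' deposited table. That made 3 of 80 peaks (3.75%), below the 6.00% of all peaks. Of 12 genes of ADAMTS-like proteins and substrates, ADAMTSL4 at 1.08 ± 0.28 (SE) and THSD4 at 1.13 ± 0.33 (SE) were called on the Down side by the authors' deposited table, 2 of 61 peaks (3.28%), also below that share, and no substrate gene was. Of 11 ADAM metalloprotease genes only ADAM12 was called, with 4 positive peaks, from 1.01 to 2.53 in the authors' deposited table. That made 4 of 45 peaks (8.89%), against 6.00% of all peaks. Among 10 regulators of matrix proteases 0 of 35 peaks were called by DESeq2 at an adjusted p under 0.05, with 7 at an unadjusted p under 0.05. The shares over all peaks were 6.00% and 16.4%. Counts this small are not read as a difference from all peaks.

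Markers of cell types were placed beside these results. All 12 cardiac progenitor markers had a peak, 7 of them 1 that carries the symbol. Of their 75 peaks 4 were called Up (5.33%, against 2.36% of all peaks), at GATA4, MYH7, NKX2-5 and PDGFRA. On the Down side 2 were called (2.67%, against 3.64%), at KDR and TBX5. Of the endoderm markers 9 of 10 had a peak (CER1 had none), with 12 of 49 peaks called Up (24.5%, against 2.36% of all peaks). At APOB 2 were called Down (4.08%, against 3.64%), and the median log2 fold change of the 49 was -0.76. FOXA2 alone held 7 of those 12 peaks, and APOB, EPCAM, HHEX, HNF4A and SOX17 held 1 each. Of the fibroblast and smooth muscle markers 5 of 6 had a peak (POSTN had none), 18 peaks in all with a median of 0.31. On the Up side 0 of 18 were called (0 at an unadjusted p under 0.05), against 2.36% of all peaks. On the Down side 3 of 18 were called (16.7%, against 3.64%), at COL3A1 and THY1. Of 37 endothelial marker peaks 2 were called on each side (5.41% each, against 2.36% Up and 3.64% Down). They lay at CDH5 and FLT1 on the Up side and at NOS3 and TEK on the Down side. The pluripotent markers had 0 of 14 called (1 at an unadjusted p under 0.05), against 6.00% of all peaks on either side. Whether a marker list differs from all peaks was not tested, nor was the part of the markers in the member results.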

How the data were processed

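ATAC-seq was done on day 6 progenitors of 4 libraries, 2 high and 2 low, grouped by their titles; per the labels' protocols, hyperactive Tn5 and paired-end sequencing were used. Per the submitters' processing notes, BWA, MACS2 and DESeq2 (versions not listed) were used; the sources used here do not give Tn5 shifting, duplicate removal or pooling for peak calling, and each could change a peak's count. Per the file headers, each peak of the deposited table has a mean normalized count from the authors (a signal averaged over libraries), log2 fold change with its SE, Wald score, p-value and adjusted p-value, a marking and some gene symbols. The authors' score equalled fold change over SE to within 1.7e-07, the deposited p-value its normal p to within 5.0e-08, and the adjusted p-value the Benjamini-Hochberg value over the 60875 peaks to within 3.4e-06. Marked peaks were those with an unadjusted p under 0.05 and a log2 fold change of 1 or more in either direction (0 exceptions). Depth per library is unknown.

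Peaks were assigned with RefSeq gene bodies (GRCh38.p14) in Python 3.11.15 with pandas 2.3.3, numpy 2.4.6 and SciPy 1.17.1. Coordinates are as deposited, and no source says whether starts are 0-based or 1-based. No p-value was computed for a gene family; intervals are 95% normal intervals from the authors' SE. The counting and adjustment steps were tested on simulated data. The members and lists were chosen with earlier results of these data known. Genes named are all those with a called peak. Of the rest, the gene with the most peaks and that with the highest mean count at a symbol-bearing peak are named per family. Others are said to be chosen after their values were seen, as are the pathway and marker genes with called peaks. The values of the called ADAMTS4 peak, which is in all counts, are not reported here. The alternatives tried were a stricter threshold, the authors' marking, symbol-bearing peaks only, a limit of 10 kb, higher counts only, peaks with 1 nearest gene, and recentring by mean count.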

Additional observations from a re-analysis of the deposited data

How the results depend on the processing

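No paired analysis was possible because the deposited table holds no value per library; leaving out each replicate was not run for the same reason. With the authors' values as deposited, the counts of called peaks were 1 Up and 8 Down in integrin, 2 Up and 6 Down in ADAMTS and 0 Up and 4 Down in MMP/TIMP peaks. At an adjusted p under 0.01 the Down side counts were 5 in integrin, 2 in ADAMTS and 2 in MMP/TIMP, and the Up side count in ADAMTS was 0; 10 of the 21 called peaks remained. Under the authors' marking the Up side counts were 6, 6 and 1 and the Down side counts 7, 9 and 4. With symbol-bearing peaks only, integrin had 0 Up and 1 Down, ADAMTS 0 and 0, and MMP/TIMP 0 Down. Within 10 kb, integrin had 0 Up and 5 Down and ADAMTS 1 Up. With mean counts at or above the median, integrin had 0 Up and 4 Down and ADAMTS 1 Up and 3 Down; fewer peaks enter these last 3 alternatives by construction. Recentring by the running median of fold change, chosen after seeing the data, left 1 Up in ADAMTS and 19 of 21 calls, without ITGA5 and ADAMTS16. Using peaks with 1 nearest gene moved no count by over 1.5 times. The median log2 fold changes stayed positive under every alternative run on them, from 0.11 to 0.23 in integrin, 0.059 to 0.13 in ADAMTS and 0.063 to 0.12 in MMP/TIMP peaks.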
